A study of Homo sapiens with 8 samples.

Results

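Progesterone receptor (PR) sites that were listed at each time after hormone and lay in chromatin carrying H3K4me1, but neither H3K4me3 nor RNA polymerase II, numbered 4731. They were found by merging 5 lists of PR sites wherever sites overlapped by at least 1 bp, which gave 43784 merged sites. Of these, 10001 held a site at 5, 30, 60 and 360 min of R5020 and none from before hormone, and are called persistent here. Overlap with an H3K4me1 region of unstimulated cells was required, and overlap with an H3K4me3 or polymerase region of unstimulated cells was not allowed. The 4731 sites are 10.8% of the merged sites and 47.3% of the persistent ones (exact 95% interval 46.3 to 48.3%, covering counting error only). They are called H3K4me1-alone persistent sites below. The lists chose them, so their times and their chromatin overlap are descriptions and no test was made on them.

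All libraries came from T47D-MTVL cells, a human luminal breast cancer line with an integrated reporter driven by the mouse mammary tumour virus promoter. PR was immunoprecipitated with the H190 antibody from cells given 10 nM R5020 for 5, 30, 60 or 360 min and from unstimulated cells (0 min), and H3K4me1, H3K4me3 and RNA polymerase II from unstimulated cells alone. Every culture had first spent 48 h in charcoal-treated serum and 1 day without serum. A table of DNA protected from micrococcal nuclease (MNase) covers the PR sites listed at 60 min, in cells given R5020 and in unstimulated cells. Its column headings name R5020 without a time or dose. Each PR and chromatin group had 1 library. The MNase reads belong to none of the 8 samples, and the table gives 1 value per condition. Differences between groups could not be set against a spread of replicates, and none was given a p-value. The lists give positions on hg19 and no heights, and their depth is unknown. A site missing from a list is not thereby shown to be unbound.

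PR is a nuclear receptor that binds DNA in cooperation with chromatin factors once a progestin occupies it, and R5020 (promegestone) is a synthetic progestin. Monomethylation of histone H3 at lysine 4 marks enhancers and the flanks of promoters, trimethylation of the same residue marks active promoters, and RNA polymerase II marks transcribed genes and some active enhancers. MNase cuts the DNA between nucleosomes, so reads from the surviving fragments report DNA wrapped in nucleosomes. Enhancers with H3K4me1 and no activity are often called poised. The 3 chromatin lists cannot establish that state, because acetylation and the repressive marks that define it were not analysed here. Of the 4731 sites, 23.6% lay in an H3K4me1 region that overlapped H3K4me3 or polymerase elsewhere along its length, and 10.1% lay within 1 kb of an H3K4me3 or polymerase region. The sites are therefore called by their rule. The cell type was not checked against marker genes, since no annotation of hg19 was used here.

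Most persistent sites that lay in an H3K4me1 region qualified. H3K4me1 regions held 6029 of the 10001 persistent sites (60.3%), and 78.5% of those were H3K4me1-alone. The others were left out because they also overlapped polymerase (788 sites), H3K4me3 (167 sites) or both (343 sites). A further 3824 persistent sites overlapped none of the 3 lists and are called unmarked. Among all merged sites in H3K4me1 regions alone, 31.1% of 15225 were persistent, against 15.4% of the 24841 merged sites in unmarked chromatin. Both shares use the values that chose the sites and are given as a description. Merged sites that join 4 lists are also wider, and so likelier to touch a region. The reverse pattern, a site already listed before hormone and at all later times in H3K4me1 chromatin alone, occurred at 34 merged sites.

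The boundaries of the class were thin. The least distant from polymerase was a site on chromosome 1 from 200341137 to 200341585, which abutted a polymerase region at a distance of 0 bp, and 9 sites lay within 10 bp of an H3K4me3 or polymerase region. Just outside, 12 persistent sites in H3K4me1 regions were left out for an overlap of 10 bp or less. The smallest overlap was 1 bp of a polymerase region. It occurred at the site from 5589496 to 5589923 of chromosome 10 and at the one from 89221516 to 89221803 of chromosome 16. At the H3K4me1 boundary 16 sites entered on an overlap of 20 bp or less, the smallest being 2 bp, and 4 unmarked persistent sites missed an H3K4me1 region by 10 bp or less.

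The sites at the 4 times overlap by the rule, so their widths and midpoints are given as a description. At 5, 30, 60 and 360 min their median width was 316, 329, 332 and 297 bp, where the median over the whole list was 269, 285, 313 and 265 bp. The H3K4me1-alone persistent sites were therefore wider than the list median at every time, most so at 5 min. Unmarked persistent sites had medians of 292, 321, 325 and 289 bp. Joining overlapping sites of 4 lists favours wide sites, and the whole lists include the persistent ones. The midpoint of the 5 min site lay a median of 25.5 bp from that of the 60 min site, and within 50 bp at 74.4% of sites. The 30 min midpoint lay a median of 19 bp away and the 360 min midpoint 19.5 bp away. Unmarked persistent sites had medians of 26.5, 20 and 20 bp at 5, 30 and 360 min. Sites wide at 1 time tended to be wide at the others, with rank correlations of 0.47 (5 and 60 min) to 0.62 (30 and 60 min) over the 4731 sites, which share their positions and the unknown peak-calling procedure. Most merged sites held a single site per list. At 5, 30, 60 and 360 min, 177, 174, 155 and 148 merged sites held more than 1.

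The sites were spread thinly over the H3K4me1 landscape and favoured its wide regions. They lay in 4221 of the 73263 H3K4me1 regions (5.76%). These regions had a median width of 3448 bp (quartiles 2099 and 6327 bp), against 2070 bp for the regions without such a site. Wider regions offer more bases to be hit, and that part of the difference was not tested. A single site was held by 3773 regions and more than 1 by 448 regions, of which 373 held 2, 56 held 3 and 8 held 4. Regions that held a site did not overlap promoter or polymerase regions more often than others: 20.9% did, against 21.2% of regions without one. By target, 12.7% overlapped H3K4me3, against 16.2%, and 18.1% overlapped polymerase, against 16.8%. These shares were adjusted neither for region width nor for the rule. The rule leaves out sites that overlap H3K4me3 or polymerase, so regions with only such sites count among those without one.

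Within an H3K4me1 region the sites sat towards the middle. When each region was cut into 5 bands of equal length by distance from its centre, 27.1% of midpoints fell in the central band and 26.4%, 19.9%, 14.9% and 11.8% in the bands outwards from it, the last including midpoints beyond the edge. Even use of the length would put the same share in each band. In the 1796 cases where the region was at least 5 kb wide, the central band held 23.6% and the outermost 10.4%, so the lean to the centre was also present where the site is small against the region. Wholly inside lay 4306 sites (91.0%), and 425 crossed an edge. The median midpoint was 1099.5 bp from the nearer edge.

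By the rule these sites overlapped no H3K4me3 or polymerase region, and their distances to such regions ran from adjacent to 3183 kb. The nearest H3K4me3 region was a median of 29.6 kb away (quartiles 9.93 and 76.0 kb), the nearest polymerase region 23.7 kb, and the nearest of either kind 16.8 kb (4.13 and 49.8 kb). Unmarked persistent sites were farther out, at a median of 54.5 kb (19.1 and 151.9 kb). Within 10 kb of an H3K4me3 or polymerase region lay 39.9% of the H3K4me1-alone sites and 15.7% of the unmarked ones. Beyond 50 kb lay 1180 sites (24.9%). H3K4me1 regions also border promoters, and the part of the chosen chromatin in this closeness was not tested.

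H3K4me1-alone persistent sites also lay close to one another. The nearest other such site was a median of 35.4 kb away (quartiles 6.03 and 154.3 kb), whereas unmarked persistent sites were a median of 133.5 kb from the next unmarked one. Another H3K4me1-alone persistent site lay within 2 kb of 14.1% of them and within 10 kb of 31.1%, against 5.54% and 13.0% for the unmarked class. Counting PR sites of any kind, 73.9% had another merged site within 10 kb, against 50.7% of unmarked sites. By the rule the H3K4me1-alone sites are confined to H3K4me1 regions, and they outnumber the unmarked sites (4731 against 3824). The part of both in this closeness was not tested. The list at 0 min held 844 sites in all, and 112 of the H3K4me1-alone persistent sites (2.37%) were within 10 kb of one of them.

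The share of persistent sites that were H3K4me1-alone differed widely between chromosomes. It was lowest on chromosome 4, with 57 of 366 sites (15.6%, exact 95% interval 12.0 to 19.7%), followed by X (21.7%), 2 (23.4%), 13 (24.0%) and 18 (30.6%). It was highest on chromosome 17, with 282 of 474 (59.5%, 54.9 to 63.9%), followed by 21 (58.6%) and 22 (58.3%). Chromosomes 1 and 3 held the most sites, 479 each. Because the share is defined by overlap with H3K4me1 regions, it depends on how many of them a chromosome has. The X chromosome had 3.83 regions per Mb and chromosome 4 had 6.75, against 59.3 on chromosome 17. Over the 23 chromosomes the share and the region density had a rank correlation of 0.67, a description that partly restates the rule. The points share 1 H3K4me1 library, and the density of unstimulated MNase reads at unmarked persistent sites moved with both (rank correlation 0.58 with the share and 0.67 with the region density). The part of read density in the H3K4me1 list, and so in this share, was not tested.

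**Figure D1:**
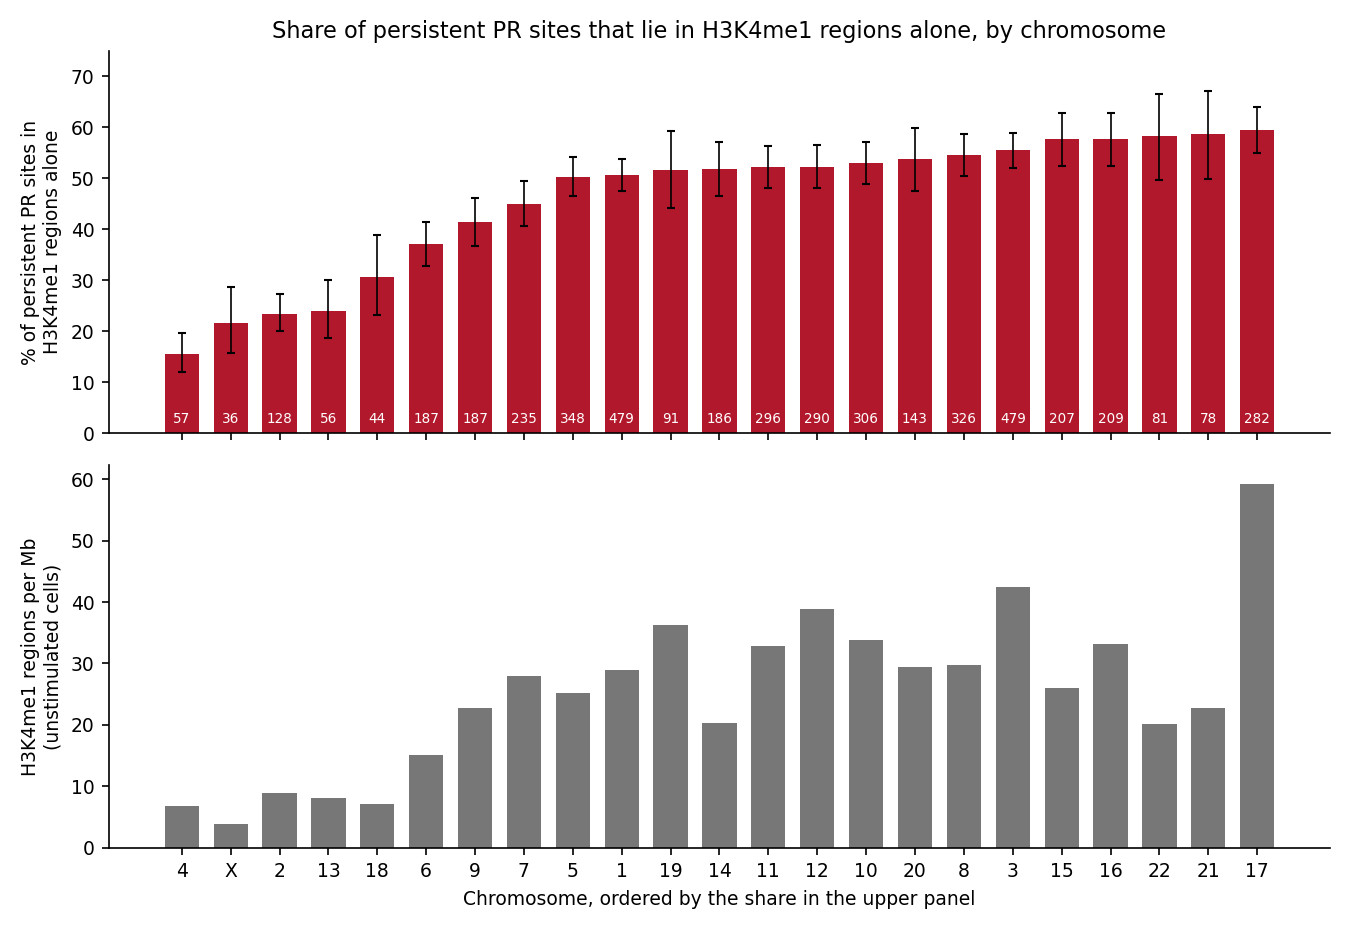
Upper panel: percentage of each chromosome's persistent PR sites that are H3K4me1-alone, with exact 95% intervals for counting error and the number of such sites inside the bar. Lower panel: H3K4me1 regions per Mb in unstimulated cells, chromosomes in the same order. The 5 chromosomes below 31% (4, X, 2, 13 and 18) each have under 9 H3K4me1 regions per Mb.

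The rule for the sites uses no MNase value, although the class was chosen with earlier results of these data known. In the authors' deposited table the 4731 merged sites matched 4895 sites of the 60 min list. At these the median was 83 reads with R5020 and 121 reads in unstimulated cells, or 24.4 and 35.3 reads per 100 bp. The R5020 value was a median of 68.4% of the unstimulated value (quartiles 54.7 and 83.8%). This percentage is called the reads left. Over all 24436 sites of the authors' deposited table the median left was 77.3%. Reads were thus lower with R5020 at most PR sites, and the percentage left was lower still at H3K4me1-alone persistent sites. The sources used here do not say how the authors normalized the 2 conditions. The level of 68.4% depends on that unknown step, as do counts past a fixed percentage. If it was a single scale factor, log2 differences between classes of sites within the table do not depend on it, but this could not be checked.

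Loss of 50% or more of the reads occurred at 899 of the 4895 sites (18.4%, exact 95% interval 17.3 to 19.5%), against 13.4% of all sites in the authors' deposited table. A value of 200% or more occurred at 3 sites (0.061%), against 0.385% of all sites. Any value above 100% occurred at 523 sites (10.7%), against 20.9% of all sites.

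Among persistent sites, the H3K4me1-alone class stood between unmarked chromatin and chromatin with polymerase. From the authors' deposited table, the median left was 68.4% at H3K4me1-alone sites, 65.7% where H3K4me3 was added (170 sites), 50.8% in polymerase regions without H3K4me3 (891 sites) and 47.0% where all 3 were present (358 sites), and 85.2% at unmarked sites (3889). The log2 change at H3K4me1-alone sites was lower than at unmarked sites by a median difference of -0.32 (interval -0.35 to -0.28 from the order statistics of both medians, over sites of 1 table). The direction was the same on 23 of 23 chromosomes. Within 20 equal groups of sites by unstimulated reads per 100 bp the difference was -0.23, smaller but in the same direction. Against persistent sites in polymerase regions without H3K4me3, the H3K4me1-alone sites had a log2 change higher by 0.42 (interval 0.37 to 0.49), in the same direction on 23 of 23 chromosomes.

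The levels behind these percentages differed between the classes in both conditions. In the authors' deposited table H3K4me1-alone sites had 24.4 reads per 100 bp with R5020, against 20.1 at unmarked sites. In unstimulated cells they had 35.3 reads per 100 bp, against 23.9 at unmarked sites. Sites in polymerase regions without H3K4me3 had 19.9 with R5020 and 38.9 in unstimulated cells.

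**Figure D2:**
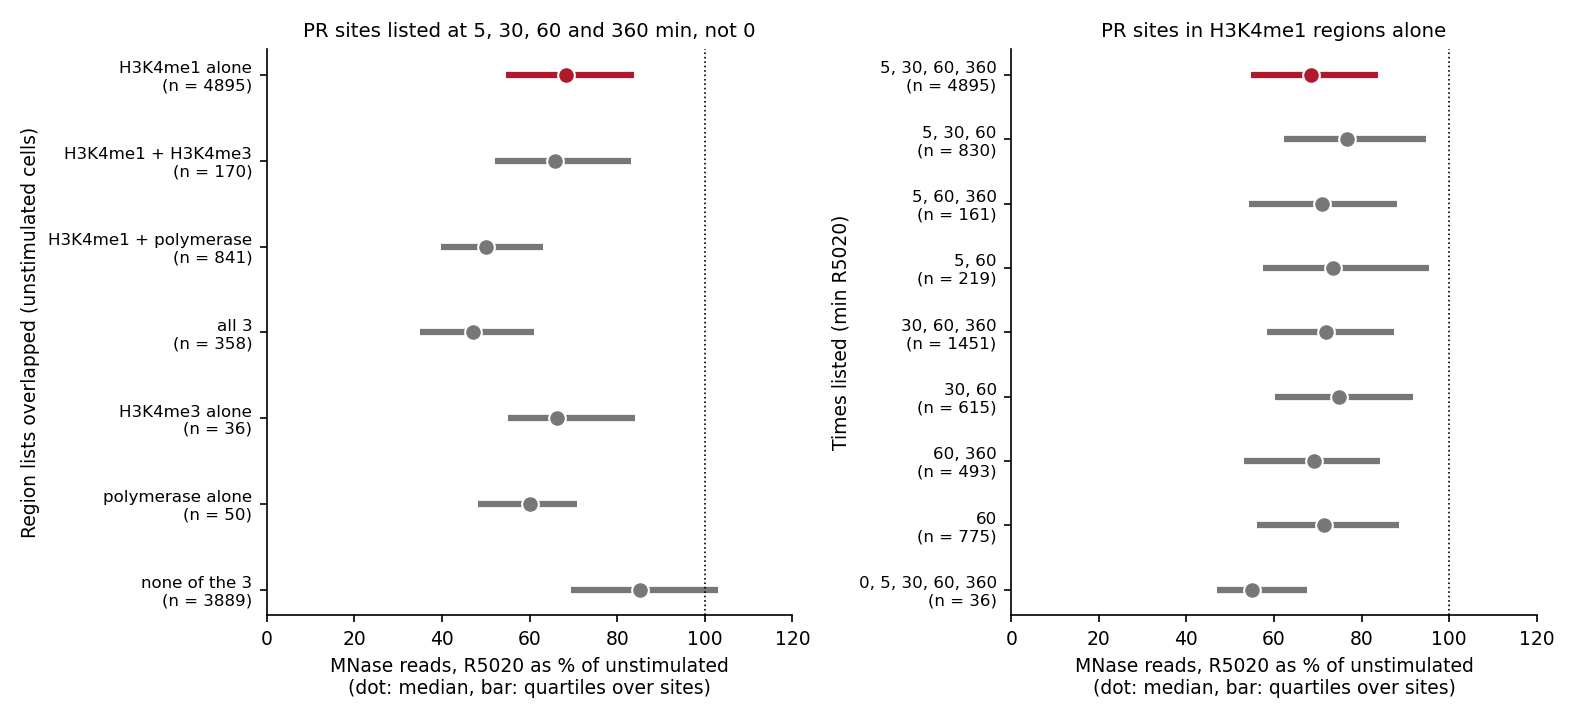
MNase reads with R5020 as a percentage of unstimulated reads at PR sites listed at 60 min, as medians (dots) and quartiles over sites (bars). Left panel: persistent sites by the region lists they overlap. Right panel: sites in H3K4me1 regions alone, by the times that list them. H3K4me1-alone persistent sites (red, 68.4%) lie between unmarked sites (85.2%) and sites in all 3 lists (47.0%) on the left. On the right their median is the lowest of the classes listed only with hormone (the others 69.1 to 76.7%), with overlapping quartiles. The class also listed before hormone has 55.1%.

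Within H3K4me1 chromatin alone, the median left at persistent sites was at the low end of the classes listed with hormone, but not apart from all of them. From the authors' deposited table, it was 68.4% at persistent sites, against 71.3% at sites listed at 60 min alone (775 sites), 74.8% at 30 and 60 min (615), 72.0% at 30, 60 and 360 min (1451) and 76.7% at 5, 30 and 60 min (830). The other classes, listed at 60 and 360 min, at 5 and 60 min, or at 5, 60 and 360 min, had 69.1%, 73.6% and 71.0%. The interval of the median was 67.5 to 69.1% at persistent sites and overlapped that of sites listed at 60 and 360 min (66.7 to 71.3%) and at 5, 60 and 360 min (66.7 to 73.9%). Losses of 50% or more occurred at 18.4% of persistent sites (exact interval 17.3 to 19.5%). In those classes they occurred at 19.7% (16.3 to 23.5%) and 21.1% (15.1 to 28.2%). The intervals overlap, so these shares do not rank the classes. Over all sites of the authors' deposited table the share was 13.4%. The log2 difference between persistent sites and those of 60 min alone was -0.06 (interval -0.12 to -0.01). It was negative on 17 of the 21 chromosomes with at least 5 sites of each class. Without regard to chromatin the same comparison gave -0.17, and in unmarked chromatin -0.08. Against sites listed at 5, 30 and 60 min but no longer at 360 min the difference was -0.17 (interval -0.22 to -0.11), negative on 20 of 23 chromosomes. The class farthest from the others was the smallest. The sites also listed before hormone, matched by 36 sites of the authors' deposited table, had 55.1% left and 47.0 unstimulated reads per 100 bp.

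The reads left differed with the place of a site relative to the edge of the H3K4me1 region. From the authors' deposited table, the 446 sites of the 60 min list that belonged to edge-crossing merged sites had 86.8% left (quartiles 69.4 and 108.2%), against 67.1% (53.8 and 81.4%) at the 4449 that lay wholly inside. Crossing sites had the higher median on 23 of 23 chromosomes. Their value was near that of unmarked persistent sites within 1 kb of an H3K4me1 region, 86.0% (406 sites). Losses of 50% or more occurred at 7.17% of crossing sites and at 19.5% of those inside. The share was 6.90% at those unmarked sites within 1 kb and 13.4% over all sites of that table.

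The change with distance was graded on the inner side of the edge and flat on the outer side. By the midpoint at 60 min, and from the authors' deposited table, the median left was 62.3% more than 5 kb inside the edge (363 sites), 62.3% at 2 to 5 kb, 66.1% at 1 to 2 kb, 69.3% at 500 to 1000 bp and 78.8% within 500 bp (888 sites). Just outside, within 500 bp, it was 89.5% (296 sites), and in the 5 bins farther out it stayed between 83.3% and 86.3%. The step thus fell within about 1 kb of the listed edge. The order was the same in wide and narrow regions. In regions of at least 5 kb the medians were 62.3%, 64.2%, 69.1% and 76.9% from the 2 to 5 kb bin outwards to the edge, and in narrower regions 63.0%, 67.5%, 69.4% and 79.0%.

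Most of this gradient lay in the unstimulated reads. In the authors' deposited table the 5 bins inside the edge had between 23.8 and 25.3 reads per 100 bp with R5020. In unstimulated cells the same bins had 41.1 reads per 100 bp more than 5 kb inside, 38.3, 35.4 and 35.3 nearer the edge, and 30.9 in the last 500 bp. The percentage left has the unstimulated reads as its denominator, and H3K4me1 and the unstimulated MNase reads come from cells in the same state. Whether higher nucleosome reads and a wider H3K4me1 call share a source was not tested.

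**Figure D3:**
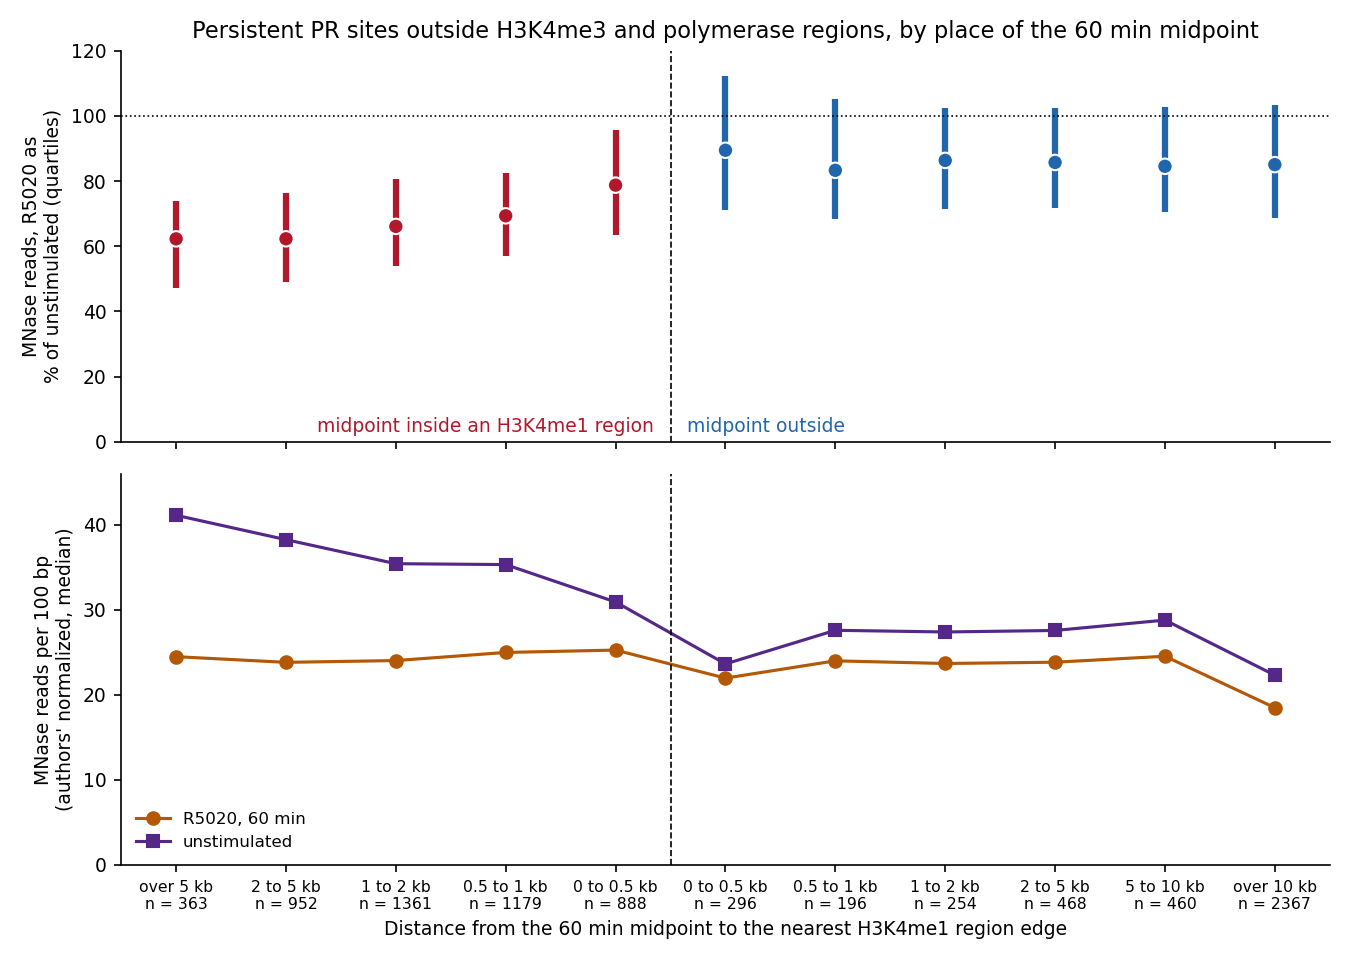
Upper panel: MNase reads with R5020 as a percentage of unstimulated reads at persistent PR sites outside H3K4me3 and polymerase regions, binned by the distance of the 60 min midpoint from the nearest H3K4me1 edge (dot: median, bar: quartiles over sites; red: inside, blue: outside). Lower panel: median normalized MNase reads per 100 bp in the same bins, R5020 in orange and unstimulated in purple. The 60 min in the legend is the time of the PR list, and the MNase column heading names no time. The median left runs from 62.3% deep inside to 89.5% just outside, while reads with R5020 stay between 23.8 and 25.3 per 100 bp in the inner bins.

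Sites in wider H3K4me1 regions had a lower percentage left. From the authors' deposited table, the quartiles of region width (medians 1619, 2915, 5110 and 12602.5 bp) had 74.5%, 69.7%, 66.7% and 63.5% left, and losses of 50% or more at 11%, 16.3%, 19.5% and 26.6% of sites. Over all sites of that table such losses occurred at 13.4%. On 21 of the 21 chromosomes with at least 5 sites in both outer quartiles, the widest quartile had the lower median. Among sites wholly inside a region, where the crossing sites no longer contribute, the quartiles had 70.6%, 69.1%, 65.7% and 63.5% left, so the order held in a narrower range. The narrowest and widest quartiles had 24.4 and 24.9 reads per 100 bp with R5020, but 32.4 and 39.9 in unstimulated cells. Sites in narrow regions also lie nearer an edge. At 500 to 1000 bp inside the edge, regions of at least 5 kb and narrower ones had 69.1% and 69.4% left, and at 1 to 2 kb 64.2% and 67.5%. The parts of region width and edge distance were not separated.

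Other features of the sites went with smaller differences in the median left. By the authors' deposited table, sites in H3K4me1 regions that overlapped H3K4me3 or polymerase elsewhere had 65.2% left, against 69.4% in regions that overlapped neither. By distance from H3K4me3 and polymerase regions, the median left was 67.6% within 1 kb and 69.1% beyond 50 kb, and losses of 50% or more occurred at 21.7% and 15.7% of sites. Such losses occurred at 13.4% of all sites in that table. Sites with another H3K4me1-alone persistent site within 2 kb had 65.6% left, and those with none within 50 kb had 68.5%. The 4 quartiles of site width at 60 min had medians between 67.0% and 69.3%, with no order. All of these medians lie inside the quartiles of any single group.

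The reads left also differed between chromosomes. From the authors' deposited table, the median left at H3K4me1-alone persistent sites was 51.8% on chromosome 22, 54.0% on 19 and 58.6% on 2, and 74.4% on chromosome 12, 75.2% on 8 and 76.6% on 3. Losses of 50% or more occurred at 48.8% of 84 sites on chromosome 22, 43.5% of 92 on 19 and 37.4% of 131 on 2. On chromosome 3 they occurred at 6.36% of 503 sites. The share was 18.4% over the class and 13.4% over all sites of that table. Unmarked persistent sites followed the same order to a large degree, with a rank correlation of 0.80 over 23 chromosomes between the medians of the classes. The order of chromosomes was thus largely shared by sites outside H3K4me1 chromatin. It also moved with unstimulated reads per 100 bp at the H3K4me1-alone sites (rank correlation 0.78), so that chromosomes with more reads had more left. Within the class as a whole the order was the other way, with 74.6% left in the lowest quartile of read density and 63.7% in the highest. The points share the same MNase libraries, and the part of read density was not tested. The log2 difference between H3K4me1-alone and unmarked sites of the same chromosome ran from -0.46 on chromosome 14 to -0.18 on chromosome 17, with a median of -0.35.

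**Figure D4:**
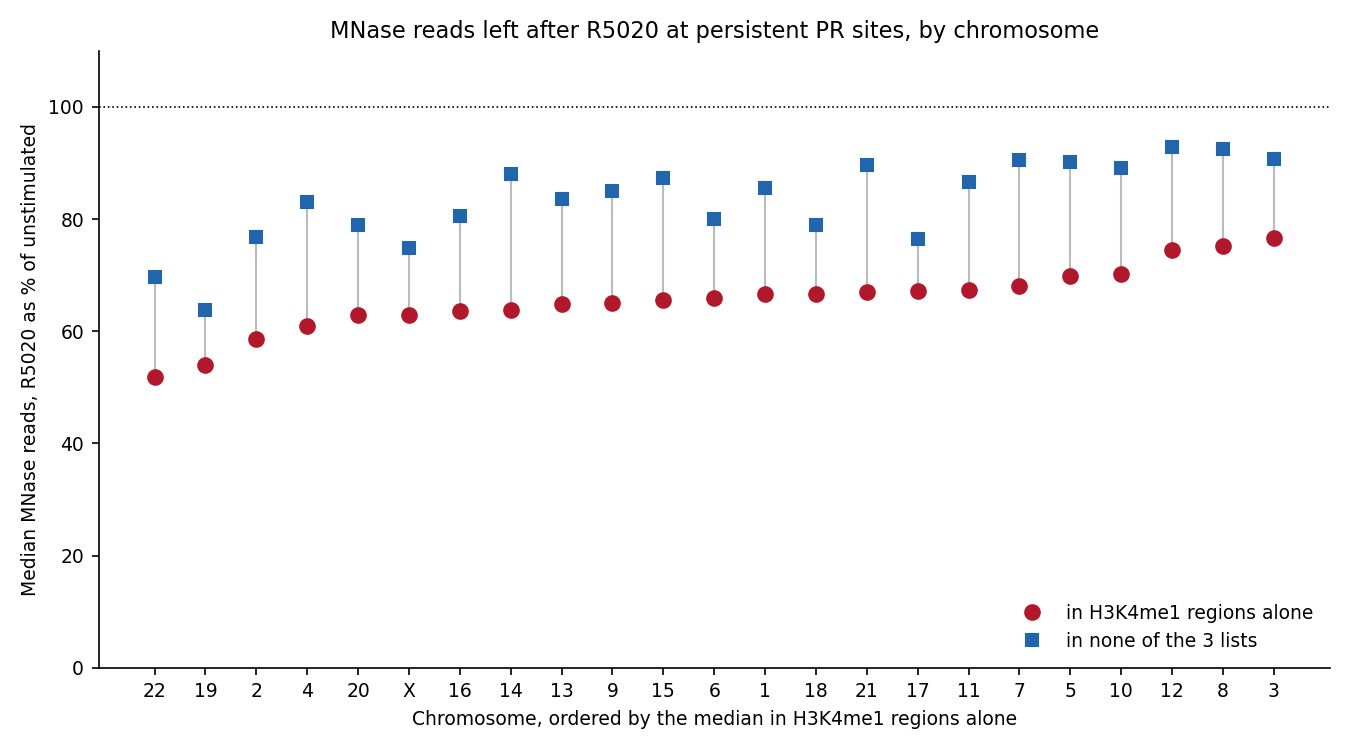
Median MNase reads with R5020 as a percentage of unstimulated reads at persistent PR sites on each chromosome, for sites in H3K4me1 regions alone (red circles) and in none of the 3 region lists (blue squares), ordered by the red values. Red lies under blue on all 23 chromosomes, from 51.8% on chromosome 22 to 76.6% on chromosome 3 for the H3K4me1-alone sites.

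The widest H3K4me1-alone persistent site at 60 min lay on the X chromosome from 54773802 to 54775018. Its width was 967, 1184, 1142 and 1045 bp at 5, 30, 60 and 360 min, and the nearest H3K4me3 and polymerase regions were 58938 bp away. In the authors' deposited table it had 196 reads with R5020, against 319 without hormone, or 61.4% left. The next lay on chromosome 6 from 131972541 to 131973675, with widths of 814, 485, 1134 and 353 bp. Its 60 min site in the authors' deposited table had 153 reads with R5020 and 253 in unstimulated cells (60.5%). The third lay on chromosome 11 from 134844623 to 134845718, in an H3K4me1 region of 15902 bp, and had 262 reads with R5020 and 443 in unstimulated cells by the authors' deposited table (59.1%). All 10 widest sites were alone in their H3K4me1 region, none of these regions overlapped H3K4me3 or polymerase, and all 10 had fewer reads with R5020. These traits were common in the class. Regions with a single site numbered 3773 for the 4731 sites, 48 of which touched 2 regions. Of the sites, 23.6% lay in a region that overlapped H3K4me3 or polymerase. More reads with R5020 occurred at 10.7% of the sites of the class in the authors' deposited table, and at 20.9% of all sites there. At 60 min, the time they were ranked by, 6 of the 10 were at least 2 times as wide as at 5 min.

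Among sites with at least 50 unstimulated reads, the greatest loss was on chromosome 11 from 1848522 to 1848832. In the authors' deposited table it had 19 reads with R5020 and 134 in unstimulated cells (14.2% left). It was held with another such site in an H3K4me1 region of 16645 bp and lay 6992 bp from polymerase. Second was a site on the same chromosome from 57266997 to 57267253, with 10 reads with R5020 and 56 in unstimulated cells by the authors' deposited table (17.9%). The other 3 of the lowest 5 lay on chromosomes 6, 20 and 1 and had 18%, 19% and 20.4% left. All 5 lay wholly inside their region, as did 91.0% of the whole class.

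At the other end, the site on chromosome 16 from 84763918 to 84764598 had 172 reads with R5020 and 72 in unstimulated cells by the authors' deposited table (238.9%). It crossed the edge of an H3K4me1 region that starts at 84764254. A 60 min site on chromosome 3 from 191889012 to 191889244 followed, with 120 reads with R5020 and 64 in unstimulated cells by the authors' deposited table (187.5%). It is a part of the merged site from 191888642 to 191889251, which also held a wider 60 min site of 293 bp whose reads are not given here. The remaining 3 of the highest 5, on chromosomes 12, 11 and 12, had 184.6%, 184.5% and 168.6%. Crossing sites made up 3 of the highest 5 and none of the lowest 5. In the class 91.0% of sites lay wholly inside, so the count for the lowest 5 is near that share. Low read numbers make both ends less certain than the medians, and the 5 sites at each end were chosen by the values given.

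The 5 sites with the smallest overlap with H3K4me1, 2 to 7 bp, were at the extreme of the crossing class. In the authors' deposited table, 4 of them had more reads with R5020 than in unstimulated cells, which held at 32.1% of the 446 crossing sites. The first, on chromosome 8 from 99843958 to 99844257, had 66 with R5020 and 51 in unstimulated cells.

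The H3K4me1 region with the most such sites lay on chromosome 10 from 79158061 to 79198570 and held 7 of them among 13 merged PR sites. It overlapped 1 H3K4me3 region and 3 polymerase regions, and the 7 sites lay apart from each of them. From the authors' deposited table, the 8 matching 60 min sites had 746 reads with R5020 and 1255 in unstimulated cells together, with 39.2 to 78.6% left singly. Every one of them thus had fewer reads with R5020. This was the common outcome: more reads with R5020 occurred at 10.7% of sites in the whole class and at 20.9% of all sites in that table. The highest percentage left in the region was 2.00 times the lowest. In the same region a persistent site that overlapped the H3K4me3 region had 64.3% left, inside the range of the 7.

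**Figure D5:**
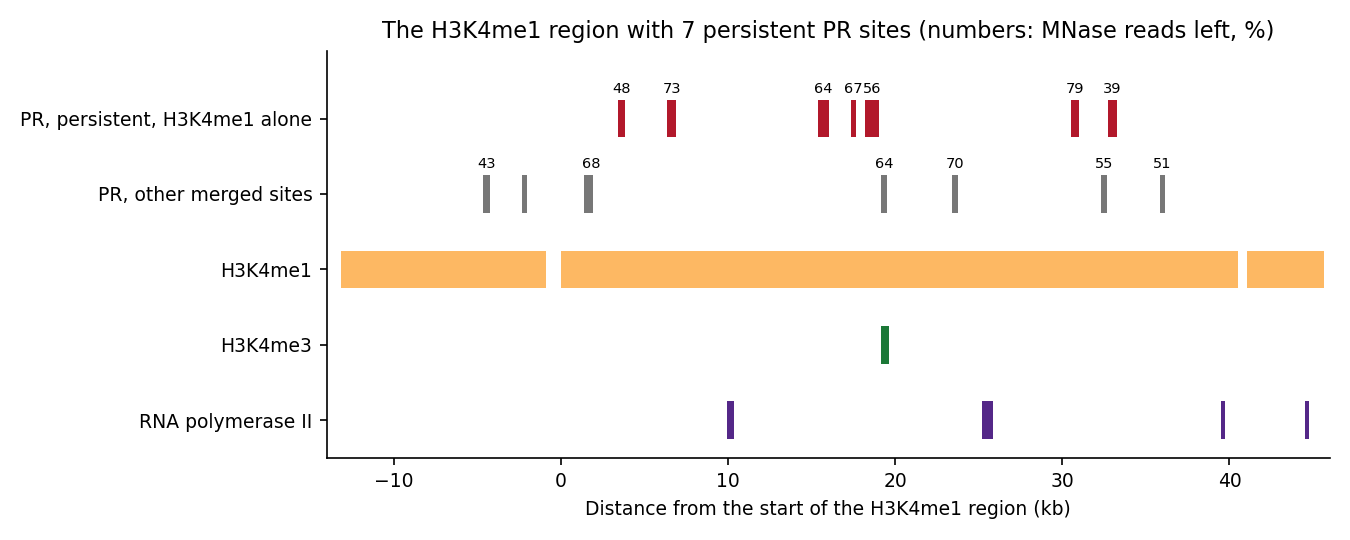
Map of the H3K4me1 region with the most H3K4me1-alone persistent PR sites, drawn by distance in kb from the start of the region. Rows give these 7 sites (red), the other merged PR sites (grey) and the H3K4me1, H3K4me3 and RNA polymerase II regions of unstimulated cells; numbers above sites are the MNase reads with R5020 as a percentage of unstimulated reads, and sites without a number were not listed at 60 min. The 7 sites span 39.2 to 78.6% left.

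Next came 3 regions with 6 sites each. A region on chromosome 17 from 55930657 to 56039007 held 23 merged PR sites, and its 6 sites had 500 reads with R5020 and 990 in unstimulated cells by the authors' deposited table. A second region of chromosome 10, from 79622604 to 79663454, lay 0.424 Mb from the first and had 417 reads with R5020 and 837 in unstimulated cells by the authors' deposited table. The last, on chromosome 10 from 14606786 to 14629488, was the one of the 4 that overlapped neither H3K4me3 nor polymerase. Its 6 sites had 555 reads with R5020 and 808 in unstimulated cells by the authors' deposited table, and ranged from 39.0 to 121.1% left. Another 7 regions held 5 sites each, with median reads left between 40.6% and 74.3%.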

How the data were processed

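The authors deposited 5 PR site lists and 3 chromatin region lists as positions, 1 list for each of the 8 samples, on hg19 per the submitters' processing notes and the file headers. They carry no peak score. For the aligner, peak caller, thresholds, input control and depth, nothing was stated in the sources used here. A further deposited table gives, at each 60 min site, the authors' normalized MNase read number with R5020 and in unstimulated cells, handled as a score, and the authors' ratio of unstimulated over R5020 reads (blank at 3 sites). Positions are printed as the lists give them.

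From these, lists were merged at an overlap of 1 bp, and 60 min sites took the class of their merged site. Reads left are R5020 reads as a percentage of unstimulated reads, and log2 changes used a pseudocount of 1. Shares carry exact (Clopper-Pearson) 95% intervals. Intervals of medians come from order statistics. Both describe sites within the same lists or table, not cultures. Chromosomes with fewer than 5 sites of a class were not compared. Every per-sample column of the files was used (0 were left aside). The overlap code was tested against a direct search on part of the real lists, and the difference code on permuted values with a planted difference. Python 3.11.15, NumPy 2.4.6, pandas 2.3.3 and SciPy 1.17.1 were used, with Matplotlib 3.10.9.

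Named sites are the 10 widest at 60 min, the 5 lowest and 5 highest in reads left with at least 50 unstimulated reads, the H3K4me1 regions with the most sites, and sites at the thresholds. The class, the lists and the rules were chosen with earlier results of these data known. Alternatives changed the overlap and merging rules, the lists' width, the read minimum, the pseudocount and the chromosomes used. Gene names, motifs and sequences were not analysed here, because no hg19 genome or annotation was used.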

Additional observations from a re-analysis of the deposited data

How the results depend on the processing

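Over 61 alternatives no difference between classes changed sign, 47 values stayed within the interval of the reported value (for counts, within 1.5 times) and 14 moved beyond it. The number of sites fell to 1772 with the wider 50% of each PR list with hormone, and lay between 4040 and 4855 otherwise. The median left of 68.4% became 67.3% with 60 min sites joined at 50% reciprocal overlap, 66.7% with the wider PR sites, 65.7% with the wider 50% of each chromatin list and 69.8% with a pseudocount of 5. The share with 50% or less left, 18.4%, became 22.0% with the wider chromatin lists and 15.2% with a pseudocount of 5. The difference from unmarked sites, -0.32 on the log2 scale, became -0.28 at 50 or more unstimulated reads and -0.23 within groups of unstimulated read density. The difference from polymerase sites, 0.42, became 0.51 with midpoints in place of overlap. Chosen after seeing the data, leaving out chromosome 3 gave 67.2% left and 19.7% at 50% or less, and requiring the site wholly inside the H3K4me1 region gave 67.1% and 19.5%. The cause of these shifts was not tested. Differences between persistent sites and those of 60 min alone stayed between -0.09 and -0.04. No paired analysis was possible because each group has 1 library. The motif share planned with its alternatives was not run, since no hg19 genome was used.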

Other observations

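H3K4me1-alone persistent sites came in runs along chromosomes, a description chosen after the values were seen and made without a test. Ordering all persistent sites along each chromosome, the longest stretch in which every one was H3K4me1-alone held 24 sites on chromosome 3 from 175991834 to 177442115. This stretch had 166.9 H3K4me1 regions per Mb, and the 41 PR sites of 60 min in it had, by the authors' deposited table, 65.4 unstimulated reads per 100 bp at the median. The next held 20 sites on chromosome 1 from 204386269 to 207017430, with 88.2 H3K4me1 regions per Mb and, by the same table, 41.1 unstimulated reads per 100 bp. A second stretch of chromosome 3, from 177527881 to 179007066, held 14 sites.

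The opposite stretches were longer in bases. On the X chromosome from 55802775 to 154204083 there were 48 persistent sites in a row without an H3K4me1-alone one, 47 of them unmarked, with 1.34 H3K4me1 regions per Mb and, by the authors' deposited table, 10.9 unstimulated reads per 100 bp. Others with 38, 33 and 33 sites lay on chromosomes 9, 2 and 4, with 4.4, 3.75 and 2.67 H3K4me1 regions per Mb. The stretches were chosen by H3K4me1 overlap, so the contrast in H3K4me1 regions between them follows from the choice. Unstimulated read density was higher in each of the H3K4me1-alone stretches (41.1 to 65.4 per 100 bp) than in each of the others (10.9 to 20.1). The part of read density in the H3K4me1 list was not tested.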
